A study of Zea mays with 12 samples.

Results

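The genes described here are those that were much lower in nkd than in B73 in both endosperm cell types of the maize kernel. A gene belongs to the set when 4 conditions on the deposited normalised reads are met: its B73 aleurone mean and its B73 starchy endosperm mean are each at least 50, its highest nkd aleurone library is at most 1/8 of its lowest B73 aleurone library, and the same holds in starchy endosperm. For a gene with several transcripts, only the one with the highest 12-library mean was kept. Of 39656 genes in the tables, 15550 had both B73 means at or above 50, and 77 of these (0.495%) met all conditions. These 77 genes are called the members. The ratio was met by 218 of the 15550 genes in aleurone and by 128 in starchy endosperm, so the members are 35.3% of the aleurone genes and 60.2% of the starchy endosperm genes. The members were thus chosen by their nkd and B73 values, which are given as a description and without a test.

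The study compared nkd aleurone and nkd starchy endosperm with B73 aleurone and B73 starchy endosperm, with 3 biological replicates each and 12 libraries in all. The kernels were taken 15 days after pollination, and cells were cut out of fixed, paraffin-embedded sections with a laser, per the labels' protocols. The nkd plants had been crossed back to the inbred line B73 over several generations, so they are mostly, not wholly, B73 in background, and the labels name neither the mutated genes nor the alleles. A linear T7 amplification preceded library preparation, which can change relative levels, and the sources used here do not say how many kernels or ears a library holds.

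The endosperm is the nutritive tissue of the maize kernel. Its outer cell layer, the aleurone, stores oil and protein and secretes hydrolytic enzymes at germination, while the starchy endosperm inside fills with starch and with zeins, the prolamin storage proteins. Naked endosperm (nkd) is a mutant known for a defective aleurone. The genes known to be mutated in it are Nkd1 and Nkd2, duplicate genes for zinc finger transcription factors of the INDETERMINATE domain family. The reference table of RefSeq genes lists the names Nkd1 and Nkd2 for 2 of the measured genes.

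Neither of these genes is a member. Nkd1 (GRMZM2G129261) had 4632, 3979 and 3578 normalised reads in nkd aleurone, against 5992, 5411 and 6911 in B73 aleurone. Nkd2 (GRMZM5G884137) had 755, 549 and 463 normalised reads in nkd aleurone, against 2725, 2751 and 2091 in B73 aleurone. Both groups were separate for each gene, and in limma the fall of Nkd2 by 2.11 on the log2 scale passed the threshold (adjusted p = 0.0026) while the difference of -0.59 for Nkd1 did not (adjusted p = 0.21). In starchy endosperm the groups were also separate for each gene. Nkd1 had 2689, 2276 and 2497 normalised reads in nkd, against 7168, 2880.5 and 13456 in B73. Nkd2 had 896, 1053 and 1017 in nkd, against 2345, 1537 and 1869 in B73. Neither difference passed there, at -1.39 for Nkd1 and -0.94 for Nkd2 (limma, adjusted p = 0.22 for each).

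Summed over the 1 transcript kept per gene, the libraries held 27012595 to 46118293 reads in nkd aleurone and 9929041 to 64000784 in B73 aleurone. They held 25766907 to 35474210 reads in nkd starchy endosperm and 9570998 to 57706902 in B73 starchy endosperm. The depths of the nkd libraries thus lay within the range of the B73 libraries of the same cell type. The members together took 0.00614% to 0.0103% of the reads of the nkd aleurone libraries, against 0.376% to 0.607% in B73 aleurone. In starchy endosperm they took 0.00643% to 0.0172% of the reads in nkd, against 0.235% to 0.298% in B73. Without the zein copy z1B_8 these shares were 0.00245% to 0.00591% in nkd starchy endosperm, against 0.123% to 0.173% in B73, and 0.00606% to 0.00758% in nkd aleurone, against 0.300% to 0.574% in B73 aleurone. In such bulk samples, fewer cells of a type and less RNA per cell cannot be told apart.

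**Figure D1:**
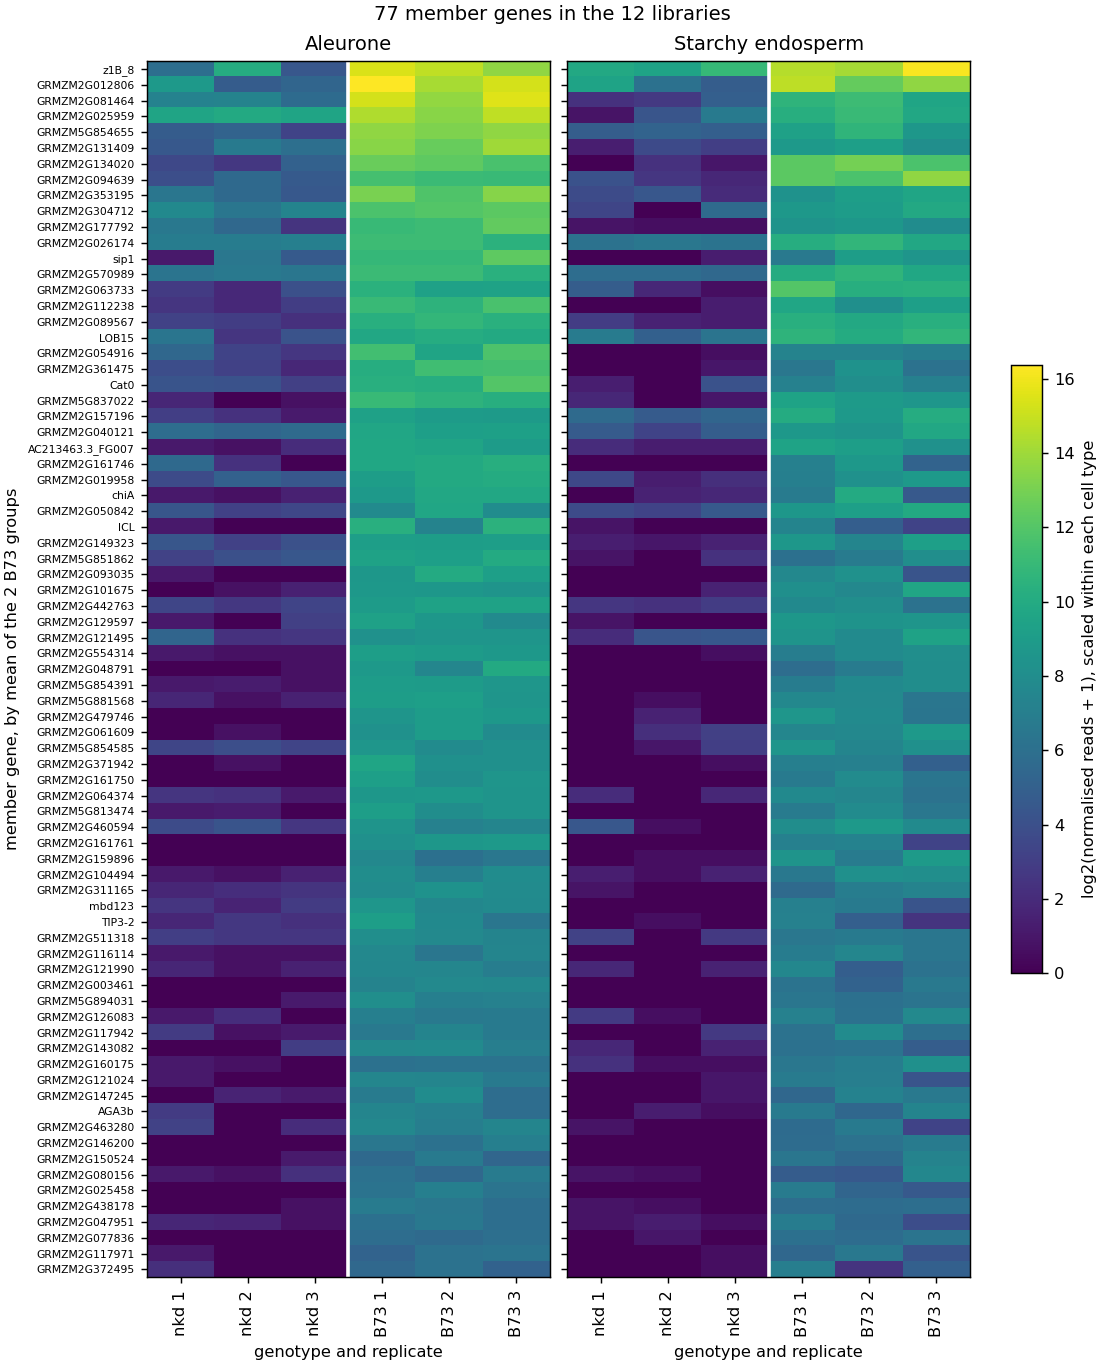
Deposited normalised reads of the 77 members (rows) in each library (columns), as log2(normalised reads + 1), with nkd left of B73 within each cell type; the authors scaled the 2 cell types separately. Every B73 column is filled for all 77 members, while the nkd columns are dark except for a few members in the upper rows.

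All 77 members had reads in each of the 6 B73 libraries. In nkd, 17 to 22 members had no read in an aleurone library and 26 to 38 had none in a starchy endosperm library. Group means of the members ran from 0 to 834 normalised reads in nkd aleurone, with a median of 2.93, against 50.3 to 47950 with a median of 441 in B73 aleurone. In starchy endosperm they ran from 0 to 1227 with a median of 0.948 in nkd, against 51.8 to 39085 with a median of 188 in B73. The heat map of the members shows a wide range of levels in B73, while most members sit near the level of single reads in nkd.

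Over the 3 nkd aleurone libraries together, 8 members had no read, 16 had 1 to 3 reads and 53 had more than 3. Over the 3 nkd starchy endosperm libraries, 14 members had no read, 21 had 1 to 3 and 42 had more than 3. Reads were present in all 3 nkd libraries for 47 members in aleurone and for 25 in starchy endosperm. In 5 members no read was found in any of the 6 nkd libraries, namely GRMZM2G161750, GRMZM2G161761, GRMZM2G003461, GRMZM2G146200 and GRMZM2G025458, named here because their values stood out. For these genes the folds are lower bounds, from 123 to 535 in aleurone and from 98.0 to 246 in starchy endosperm.

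Folds are given as B73 over nkd, so a fold above 1 means lower in nkd. With more than 3 nkd reads over the group, the fold is the B73 mean over the nkd mean. Where nkd had no read over its 3 libraries, a floor of 3 reads over the group was used and the fold is a lower bound. Where nkd had 1 to 3 reads, the fold is a ratio of read rates, a rate being the summed reads of a group over its summed scaling factors. Such a ratio can differ from the ratio of means, and for named members it is followed by an exact 95% interval that covers counting error only. With bounds at the floor, the median fold of the 77 members was 124 in aleurone (range 14.2 to 5006) and 149 in starchy endosperm (range 16.4 to 3195). Over the members with more than 3 nkd reads, where all folds are ratios of means, the median was 77.7 in aleurone and 64.4 in starchy endosperm.

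Only 41 of the 77 members (53.2%) had an entry in the RefSeq table, against 74.6% of the 15550 genes with both B73 means at or above 50. Of these 41, 9 had a name and 32 carried only a numbered placeholder, so 68 members are given by their identifiers and without a role. The 9 named members were an alpha zein copy, a chitinase, a catalase, isocitrate lyase, an aquaporin of the vacuolar membrane, a gene of the alkaline alpha-galactosidase family, a LOB domain gene, a methyl-CpG-binding domain gene and sip1.

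**Figure D2:**
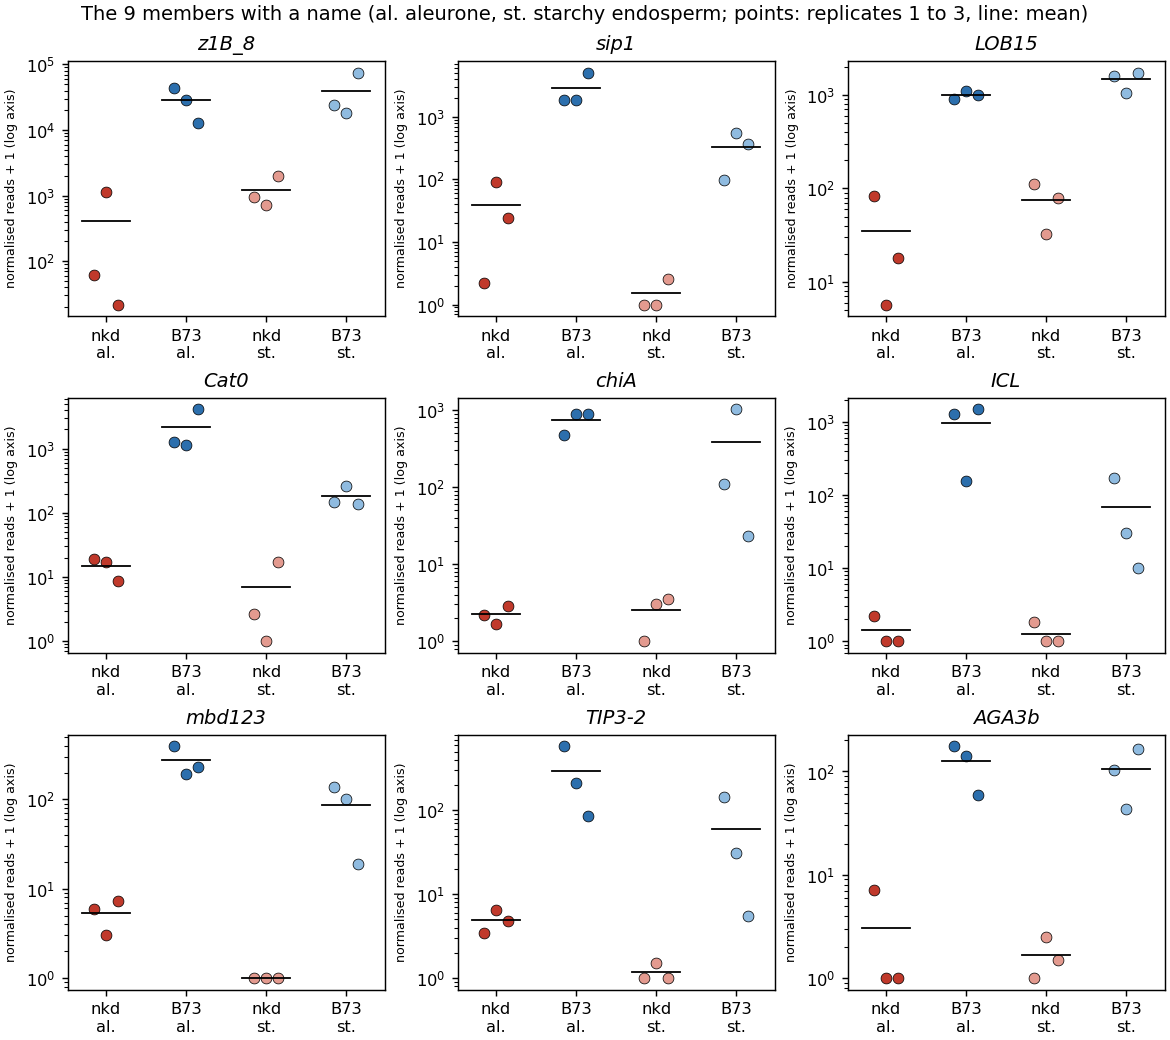
Normalised reads plus 1 on a log axis for the 9 members with a name, with 1 point per replicate and a line at the mean of each group (al., aleurone; st., starchy endosperm). In each panel and cell type all 3 nkd points lie below all 3 B73 points, and mbd123 has no read in any nkd starchy endosperm library.

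Among the storage protein genes, z1B_8 (GRMZM2G025763) was the only member. It belongs to the alpha zeins, a multigene family with near-identical copies, and RefSeq types this copy as a transcribed pseudogene. It had 60.6, 1143 and 20.8 normalised reads in nkd aleurone, against 43751, 28786 and 12604 in B73 aleurone. Replicate 2 stood far above the other nkd aleurone libraries, and all 3 were below B73, with a ratio of means of 69.5. In starchy endosperm it had 956, 714 and 2010.2 normalised reads in nkd, against 24071, 18352 and 74832 in B73, a ratio of means of 31.9. How reads shared with other zein copies were counted is not stated in the labels, so these values are uncertain.

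The defence genes held 1 member, chiA (GRMZM2G051943), a chitinase, an enzyme that cuts the chitin of fungal cell walls. It had 1.21, 0.676 and 1.89 normalised reads in nkd aleurone, against 467, 883 and 891 in B73 aleurone, a ratio of means of 592. Its starchy endosperm values were 0, 2.02 and 2.53 normalised reads in nkd, against 109, 1019.6 and 22.4 in B73, a ratio of means of 252. The B73 starchy endosperm libraries spread widely, with replicate 2 highest and replicate 3 lowest.

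Isocitrate lyase and catalase act in organelles of the peroxisome class. Isocitrate lyase (ICL, GRMZM2G056369) is an enzyme of the glyoxylate cycle, which turns carbon from stored oil toward sugar. ICL had 1 read in the 3 nkd aleurone libraries, in replicate 1 (1.21 normalised reads, and 0 in the others), against 1287, 155 and 1468 normalised reads in B73 aleurone. The ratio of read rates was 5006 (95% interval 898 to 197761), the highest fold given in aleurone. It rests on that 1 nkd read, and folds of members with no nkd read are lower bounds, so ICL cannot be ranked above them. Starchy endosperm likewise held 1 nkd read, in replicate 1 (0.82 normalised reads), against 166, 28.8 and 8.96 normalised reads in B73, a ratio of 255 (95% interval 45.1 to 10145).

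Cat0 (GRMZM2G090568), also called cat2, encodes a catalase, which breaks down hydrogen peroxide. It had 18.2, 16.2 and 7.58 normalised reads in nkd aleurone, against 1268, 1163 and 4109.6 in B73 aleurone, a ratio of means of 156. Its starchy endosperm values were 1.64, 0 and 16.2 normalised reads in nkd, against 145, 266 and 139 in B73, a ratio of means of 30.8. Replicate 3 was the high one in B73 aleurone and in nkd starchy endosperm.

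TIP3-2 (GRMZM2G103983) encodes an aquaporin of the tonoplast, a channel for water in the vacuolar membrane. It had 2.42, 5.41 and 3.79 normalised reads in nkd aleurone, against 584, 212 and 85.2 in B73 aleurone, a ratio of means of 75.9. A single nkd starchy endosperm read was found, in replicate 2, against 145, 29.7 and 4.48 normalised reads in B73 starchy endosperm, a ratio of 239 (95% interval 42.2 to 9515). Replicate 1 was highest and replicate 3 lowest in B73 in both cell types, and B73 starchy endosperm replicate 3 rested on a single read.

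AGA3b (GRMZM2G037265) belongs to the alkaline alpha-galactosidase family, enzymes related to the metabolism of raffinose sugars. It had 6.06, 0 and 0 normalised reads in nkd aleurone, against 175, 140.2 and 57.6 in B73 aleurone, a ratio of means of 61.5. In starchy endosperm it had 0, 1.52 and 0.507 normalised reads in nkd, against 102, 42.7 and 166 in B73, a ratio of means of 154. It was among the members of low level, and its nkd values rest on 5 and 4 reads.

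Of the genes for regulators, LOB15 (GRMZM2G060544) encodes a protein of the LATERAL ORGAN BOUNDARIES domain family of plant transcription factors. It had 81.2, 4.73 and 17 normalised reads in nkd aleurone, against 900.0, 1114 and 999 in B73 aleurone, a ratio of means of 29.3. In starchy endosperm it had 109.9, 31.9 and 78.6 normalised reads in nkd, against 1608, 1059 and 1730.2 in B73, a ratio of means of 19.95. It had more than 1 read in every nkd library, and of the named members its B73 values varied least relative to their mean.

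The gene mbd123 (GRMZM2G119802) is named for a methyl-CpG-binding domain, a protein fold that can recognise methylated DNA. It had 4.85, 2.03 and 6.31 normalised reads in nkd aleurone, against 395, 193 and 231 in B73 aleurone, a ratio of means of 62.1. No read was found in nkd starchy endosperm, against 139, 100.2 and 17.9 normalised reads in B73, which makes it at least 147-fold lower in nkd there.

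The gene sip1 (GRMZM2G374971) had 1.21, 88.6 and 23.4 normalised reads in nkd aleurone, against 1871, 1872 and 5075 in B73 aleurone, a ratio of means of 77.9. In nkd starchy endosperm it had 3 reads, all in replicate 3, against 98.1, 542 and 363 normalised reads in B73, a ratio of 787 (95% interval 269 to 3822).

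Among the members without a name, a few were picked after their values were seen because they were high in B73. GRMZM2G012806 had 434, 26.4 and 39.1 normalised reads in nkd aleurone, against 84495, 19339.5 and 40015 in B73 aleurone, a ratio of means of 288. In starchy endosperm it had 732, 68.3 and 27.9 normalised reads in nkd, against 27765, 5915 and 12703 in B73, a ratio of means of 56.0. Replicate 1 was the highest library of all 4 groups for this gene.

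GRMZM2G134020 had 10.9, 5.41 and 32.2 normalised reads in nkd aleurone, against 6195, 5047 and 3263 in B73 aleurone, a ratio of means of 299. Its starchy endosperm values were 0, 4.05 and 1.01 normalised reads in nkd, against 4921, 7885 and 3366 in B73, a ratio of means of 3195. That is the highest fold given in that cell type, where folds of members with no nkd read are lower bounds. GRMZM2G025959 kept the highest mean of the members in nkd aleurone, with 745, 989 and 768 normalised reads there, against 21794, 11053 and 28428 in B73 aleurone. Its ratio of means was 24.5 in aleurone and 34.0 in starchy endosperm, so genes with a clear nkd level and genes with almost none are both in the set.

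**Figure D3:**
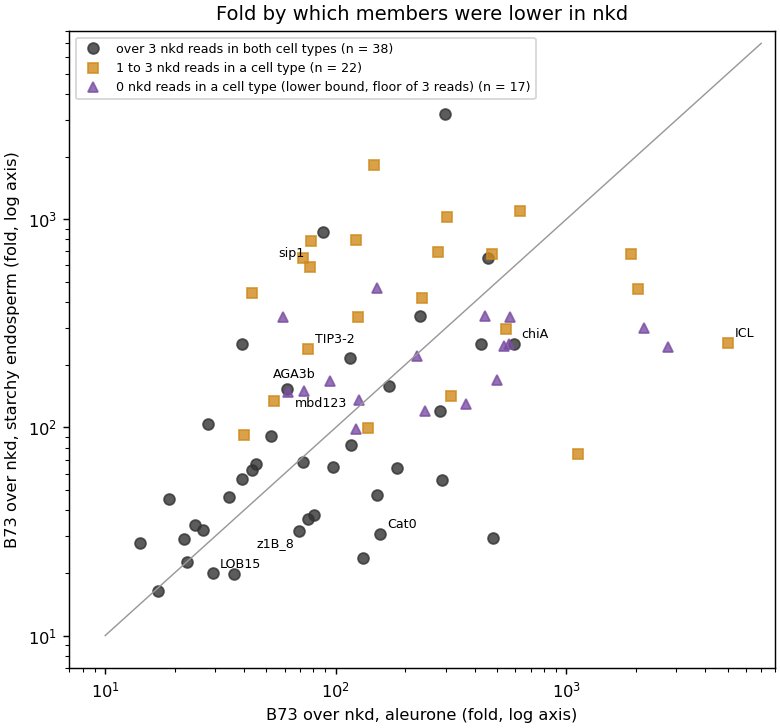
Fold by which each member was lower in nkd (B73 mean over nkd mean) in aleurone (x axis) and in starchy endosperm (y axis), both on log axes. The grey line marks equal folds, triangles are lower bounds, and members lie on either side of the grey line, 38 below it and 39 above it.

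By the folds as given, the fold was larger in aleurone for 38 members and larger in starchy endosperm for 39, as the plot of the folds shows. With at most 3 nkd reads in a cell type, the fold there is a lower bound or rests on few reads, so the order is uncertain. Among the 38 members with more than 3 nkd reads in both cell types, the count was 20 against 18. In these 38, members with a large fold in one cell type tended to have a large one in the other, with Spearman's rho of 0.55 across genes. These genes share libraries and were all chosen for large folds, and genes are not independent replicates. The members farthest from equal folds included ICL, far larger in aleurone but on 1 nkd read in each cell type, and GRMZM2G134020, far larger in starchy endosperm.

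Replicate 1 was the highest of the 3 nkd aleurone libraries for 33 members, and replicates 2 and 3 were highest for 18 each, while the 8 members with no read there have no highest library. In nkd starchy endosperm, replicate 1 was highest for 23 members, replicate 2 for 12 and replicate 3 for 28, leaving out the 14 members with no read. No library was thus the highest for all members of its group.

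At the threshold itself, the members with the smallest ratio of lowest B73 to highest nkd library were GRMZM2G121495 at 8.04, GRMZM2G012806 at 8.08 and GRMZM2G460594 at 8.09. Just outside it lay GRMZM2G010474 at 7.91, GRMZM2G380656 at 7.89 and GRMZM2G325118 at 7.88. GRMZM2G010474 had 65.4, 25.02 and 20.2 normalised reads in nkd aleurone, against 518, 1186 and 745 in B73 aleurone, and so differs from the members inside the limit only by a small margin. A ratio of at most 1/4 would give 150 members and one of at most 1/16 would give 46.

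In limma fitted to all genes of a cell type, all 77 members were called lower in nkd aleurone, where 8.28% of the 26496 genes tested were. In nkd starchy endosperm 65 of 77 were called lower, where 1.31% of the 24582 genes tested were. The rule used these same contrasts, so nothing is read from these counts.

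Other genes of the families of the named members did not share one pattern. These families were put together after the values were seen. The only other catalase gene found by name, cat1 (GRMZM2G088212), had 11722, 10371 and 13054 normalised reads in nkd aleurone, against 7321, 5509 and 4719 in B73 aleurone. Catalase genes without a matched name would be missed. The cat1 difference of 1.02 on the log2 scale did not pass the threshold in limma (adjusted p = 0.056), and neither did that of 0.60 in starchy endosperm (adjusted p = 0.49). Malate synthase (mas1, GRMZM2G102183), the other enzyme particular to the glyoxylate cycle, fell to 54.5, 54.1 and 63.1 normalised reads in nkd aleurone, against 2740, 951 and 4086 in B73 aleurone. That is a difference of -5.24 on the log2 scale (limma, adjusted p = 0.00040). In starchy endosperm malate synthase had 72.2, 19.7 and 221 normalised reads in nkd, against 281, 212 and 4.48 in B73, which overlap, with a log2 difference of 0.01.

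**Figure D4:**
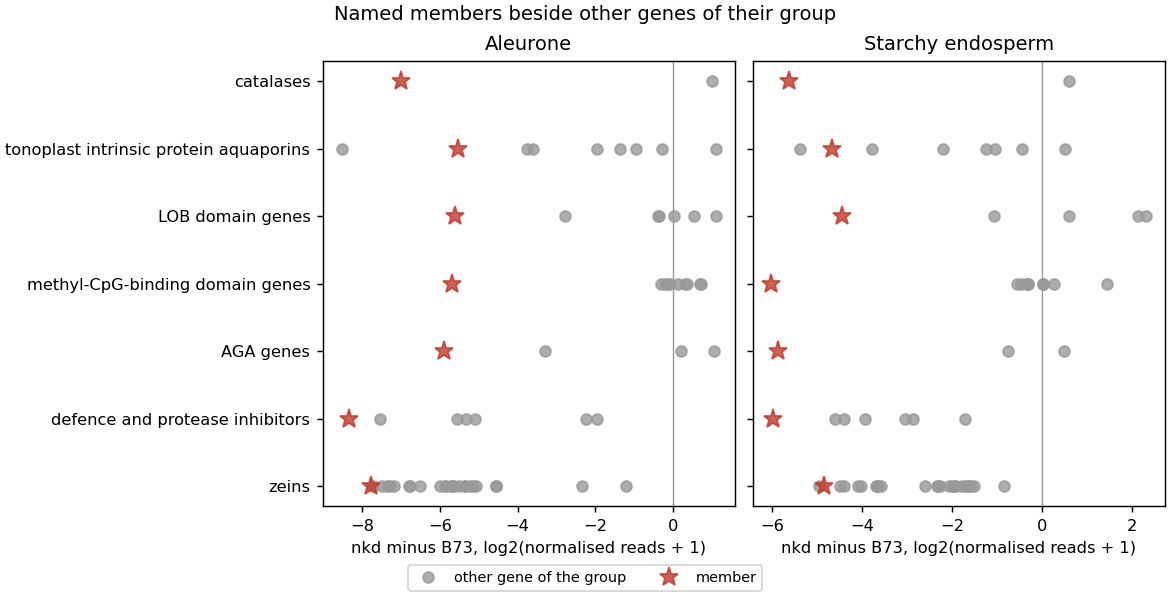
Difference between nkd and B73 in log2(normalised reads + 1) for named members (stars) and for the other tested genes of the same family or list (grey), in aleurone (left) and starchy endosperm (right). The other methyl-CpG-binding domain genes lie on both sides of 0 in both cell types, up to 1.44 for mbd115 in starchy endosperm, while the zeins and the defence genes lie to the left of it.

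None of the 9 other methyl-CpG-binding domain genes tested passed the threshold in either cell type, with medians of 0.14 in aleurone and -0.30 in starchy endosperm on the log2 scale. None of the other LOB domain genes passed either, of 6 tested in aleurone and 4 in starchy endosperm. At an unadjusted p under 0.05 stood none of these methyl-CpG-binding domain genes, and 1 LOB domain gene in aleurone and 0 in starchy endosperm. In edgeR on the recovered reads none of either family was called. A p above the threshold does not show that their levels were equal. Of the other tonoplast aquaporin genes, 3 of 8 fell in nkd aleurone and 0 of 7 in nkd starchy endosperm, where 3 had an unadjusted p under 0.05 and edgeR also called none. They include por2 (GRMZM2G125023), which fell to 13.3, 2.03 and 3.16 normalised reads in nkd aleurone, against 2856, 1853 and 1741 in B73 aleurone. TIP3-1 (GRMZM2G305446), the relative with the nearest name to TIP3-2, had 514, 199 and 334 normalised reads in nkd aleurone, against 444, 250.1 and 544 in B73 aleurone, and these groups overlap. Of the other AGA genes, 1 of 3 fell in aleurone and 0 of 2 in starchy endosperm, where no unadjusted p was under 0.05 and edgeR called none.

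Over all genes tested in limma, 6.32% rose and 8.28% fell in nkd aleurone (14.6% in either direction), and 0.464% rose and 1.31% fell in nkd starchy endosperm (1.78% in either direction). Of the lists of endosperm genes, the zeins other than z1B_8 fell in nkd aleurone in 22 of 24 genes, with a median of -5.69 on the log2 scale, where the median of all genes tested was 0.04. In nkd starchy endosperm 7 of the 24 fell, with a median of -2.29 against 0.12 over all genes, while edgeR on the recovered reads called 22 in aleurone and 0 in starchy endosperm, where 21 had an unadjusted p under 0.05 in limma. Zein genes took 0.168% to 0.858% of the reads in nkd aleurone, against 13.0% to 26.1% in B73 aleurone, and 3.96% to 10.3% in nkd starchy endosperm, against 23.5% to 38.1% in B73. Among starch and sucrose genes, which hold the enzymes of starch synthesis and sucrose breakdown, 12 of 17 fell in nkd aleurone and 3 of 17 in nkd starchy endosperm, where edgeR called 11 and 1, and none was a member. All 6 other defence genes tested fell in nkd aleurone, and 1 of 6, chiB, fell in starchy endosperm, and edgeR also called 6 and 1. Endosperm transcription factor genes fell in 5 of 12 cases in nkd aleurone and in 0 of 12 in nkd starchy endosperm, where 6 had an unadjusted p under 0.05 and edgeR called none. Of the 11 lipoxygenase genes, which oxidise fatty acids, 2 fell and 2 rose in nkd aleurone, where edgeR also called 4, and 1 fell in nkd starchy endosperm, where edgeR called none and no other had an unadjusted p under 0.05 in limma. The oil body and seed maturation list gave no call in limma or edgeR, of 6 genes tested in aleurone and 5 in starchy endosperm, with 2 and 3 at an unadjusted p under 0.05.

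Marker genes of the cell types were compared between nkd and B73 as well. Summed over its list, the aleurone marker level was 2498 to 10531 CPM (reads scaled to library size with TMM factors) in nkd aleurone, against 1103 to 3276 CPM in B73 aleurone. Most of this sum is the H+-PPase gene, with 297620, 436138 and 100268 normalised reads in nkd aleurone, against 41378, 134194 and 122320 in B73 aleurone. It was not called (limma, adjusted p = 0.20). Of the 5 aleurone markers, 2 rose in nkd aleurone, cr4 and LTP3, while Sal1 and dek1 lay at -0.29 and -0.09 on the log2 scale, not called. The summed level of the aleurone markers in starchy endosperm was 216 to 630 CPM in nkd, against 263 to 1246 CPM in B73, with 0 of 5 called by limma or edgeR and 1 at an unadjusted p under 0.05. Pericarp and nucellus markers summed to 55.2 to 138 CPM in nkd aleurone, against 9.14 to 16.6 CPM in B73 aleurone, and to 22.5 to 67.7 CPM in nkd starchy endosperm, against 2.80 to 9.17 CPM in B73. Most of the aleurone sum was expA4, with 5507, 2146 and 2291 normalised reads in nkd aleurone, against 352, 451 and 657 in B73 aleurone. Of 5 pericarp and nucellus markers tested per cell type, 2 rose in aleurone, and expA4 was the 1 that rose in starchy endosperm. Besides expA4, the gene that rose in aleurone was a Laccase-17 gene (GRMZM2G305526), with 304, 149 and 177 normalised reads in nkd aleurone, against 0, 0 and 3.00 in B73 aleurone. The other gene given the name Laccase-17 (GRMZM2G072808) was too low to be tested, with reads in B73 aleurone replicate 3 and none in the other libraries of either genotype. The lac4 genes of the list, GRMZM2G072780 and GRMZM2G164467, lay at 2.26 and 2.06 on the log2 scale in aleurone (limma, adjusted p = 0.23 and 0.22). In starchy endosperm they lay at -0.02 and 0.55, not called.

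Basal transfer layer markers summed to 7.56 to 190.7 CPM in nkd aleurone, against 2.66 to 17.5 CPM in B73 aleurone, and to 15.4 to 343 CPM in nkd starchy endosperm, against 1.90 to 23.0 CPM in B73. The top of the nkd ranges is replicate 3 in both cell types, and none of the 7 markers was called by limma or edgeR, with 0 in aleurone and 2 in starchy endosperm at an unadjusted p under 0.05. None of the 4 embryo-surrounding region markers tested in aleurone, or of the 1 in starchy endosperm, was called by either tool or had an unadjusted p under 0.05. No embryo marker was called by either tool, with 1 of 4 in aleurone and 2 of 3 in starchy endosperm at an unadjusted p under 0.05. The part that any of these cell types has in the values of the members was not tested.

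The rule did not compare aleurone with starchy endosperm within a genotype, and the members were tested on that contrast. The same libraries chose the members, however, with a least B73 level and an upper limit on nkd in both cell types. The contrast is therefore not free of the choice, and the shares over all genes, which were not so chosen, are given for scale only. Reads recovered from the deposited values were fitted for all 12 libraries together in edgeR, because the 2 cell types had been scaled in separate tables, and all 77 members were tested. In B73, 37 members were higher in aleurone and 40 lower, with a median log2 difference of -0.09, where the median of all genes was 0.09. The members ran from -2.36 to 3.74. No member and no gene at all was called, of 25499 tested (0% of genes). At an unadjusted p under 0.05 stood 17 members (22.1%) and 4196 genes (16.5%), and DESeq2 called 12 members and 1415 genes (6.09%).

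Without B73 starchy endosperm replicate 2, edgeR called 421 genes (1.59%) and 3 members, all higher in B73 aleurone. GRMZM2G131409 had 274, 147 and 407 CPM in B73 aleurone, against 20.6, 29.6 and 11.6 CPM in B73 starchy endosperm, a log2 difference of 3.74 with all libraries (edgeR, adjusted p = 0.163) and of 4.10 without that library (adjusted p = 0.036). GRMZM2G361475 had 29.1, 62.7 and 68.7 CPM in B73 aleurone, against 4.21, 16.4 and 3.03 CPM in B73 starchy endosperm, with 2.73 (adjusted p = 0.164) and 3.88 (adjusted p = 0.036). GRMZM5G854655 had 312, 221 and 308 CPM in B73 aleurone, against 31.3, 84.3 and 17.1 CPM in B73 starchy endosperm, with 2.66 (adjusted p = 0.163) and 3.53 (adjusted p = 0.031). In all 3 genes the aleurone libraries lay above every starchy endosperm library, that of replicate 2 included.

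Counted by the libraries alone, all 3 B73 aleurone libraries lay above all 3 B73 starchy endosperm libraries in 12 members (15.6%, where 16.2% of all genes did). They lay below in 11 members (14.3%, where 8.8% of all genes did), and in 54 members the cell types overlapped. Both orders of the libraries thus occurred among the members, the first at about the share of all genes. With all libraries, edgeR called no member on this contrast. Among the named ones, Cat0 had 31.2, 27.7 and 99.9 CPM in B73 aleurone, against 6.81, 13.3 and 5.88 CPM in B73 starchy endosperm, and sip1 had 46.0, 44.6 and 123 CPM, against 4.61, 27.1 and 15.4 CPM. LOB15 lay the other way, with 22.1, 26.6 and 24.3 CPM in B73 aleurone, against 75.5, 52.8 and 73.2 CPM in B73 starchy endosperm. For the other 6 named members the cell types overlapped in B73.

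In nkd, 1797 of 25499 genes (7.05%) were called between the cell types, 895 higher in aleurone (3.51%) and 902 lower (3.54%). Of the members, 7 were called, 5 higher and 2 lower in nkd aleurone, which is 9.09% of them, and 22 (28.6%, where 23.2% of all genes did) had an unadjusted p under 0.05. All 3 nkd aleurone libraries lay above the 3 nkd starchy endosperm libraries in 11 members (14.3%, where 16.1% of all genes did) and below them in 4 (5.19%, where 13.1% of all genes did). Many members have too few nkd reads for such a comparison to show a difference.

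The only named member called was sip1, with 0.0281, 2.10 and 0.552 CPM in nkd aleurone, against 0, 0 and 0.0697 CPM in nkd starchy endosperm, a log2 difference of 4.93 (edgeR, adjusted p = 0.046). It was higher in aleurone in all 3 flow cells, although nkd aleurone replicate 1 lay below starchy endosperm replicate 3. Its adjusted p rose to 0.192 without nkd aleurone replicate 2, to 0.067 without nkd aleurone replicate 3, and to 0.139 without nkd starchy endosperm replicate 1 or 2. The fitted difference also rests on 3 starchy endosperm reads and is no bound.

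The other 4 members higher in nkd aleurone carry no name. GRMZM2G177792 had 2.11, 1.06 and 0.104 CPM in nkd aleurone, against 0.0389, 0.0248 and 0.0232 CPM in nkd starchy endosperm (5.12 on the log2 scale, edgeR, adjusted p = 0.011). GRMZM2G054916 had 0.984, 0.208 and 0.119 CPM, against 0, 0 and 0.0232 CPM (5.10, edgeR, adjusted p = 0.023). GRMZM2G025959 had 17.3, 23.4 and 18.1 CPM, against 0.0389, 0.941 and 4.88 CPM (3.31, edgeR, adjusted p = 0.048). GRMZM2G149323 had 0.450, 0.192 and 0.373 CPM, against 0.0777, 0.0496 and 0.0930 CPM (2.14, edgeR, adjusted p = 0.045). In these 4 genes the groups did not overlap. GRMZM2G177792 kept its call when any single library was left out, GRMZM2G054916 lost it without nkd aleurone replicate 1 or nkd starchy endosperm replicate 1 or 2 (adjusted p 0.067 to 0.088), GRMZM2G025959 lost it without 5 of the 6 libraries (0.061 to 0.142), and GRMZM2G149323 lost it without any of them (0.058 to 0.142).

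Lower in nkd aleurone were GRMZM2G157196 and GRMZM2G061609. GRMZM2G157196 had 0.169, 0.0962 and 0.0298 CPM in nkd aleurone, against 2.33, 1.24 and 1.81 CPM in nkd starchy endosperm, a log2 difference of -4.24 (edgeR, adjusted p = 0.0025), and the call held without any single library. GRMZM2G061609 had 0, 0.0160 and 0 CPM, against 0, 0.173 and 0.349 CPM, a log2 difference of -4.33 (edgeR, adjusted p = 0.040). That call rests on 1 read in nkd aleurone and 22 in nkd starchy endosperm. It was lost with the flow cell as a block (adjusted p = 0.057) and without any single library other than nkd starchy endosperm replicate 1 (0.078 to 0.130).

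**Figure D5:**
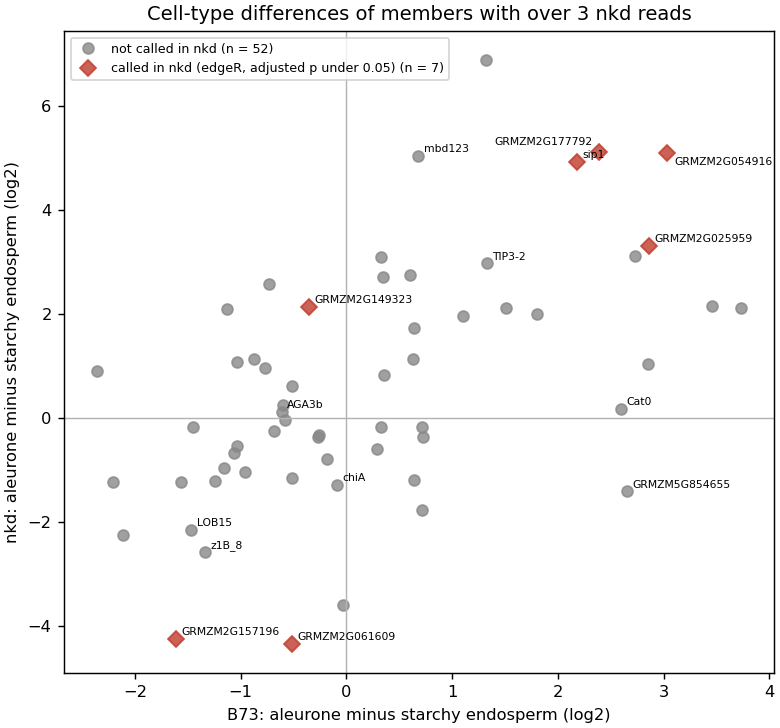
Log2 difference between aleurone and starchy endosperm in B73 (x axis) and in nkd (y axis) for the 59 members with more than 3 reads over the 6 nkd libraries. Red diamonds are the 7 members called in nkd by edgeR at an adjusted p under 0.05, and GRMZM5G854655 lies at 2.66 in B73 and -1.41 in nkd.

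The members had 2 further features that the rule did not use, given as description. Of the 41 with an entry in the RefSeq table, 34 are typed as protein-coding, 6 as transcribed pseudogenes and 1 as a long non-coding RNA. The 6 are 14.6% of the matched members, where transcribed pseudogenes are 1.39% of the matched genes with both B73 means at or above 50. A single transcript was listed for 51 members (66.2%), where 43.7% of the 15550 genes had only 1. Of the 53 other transcripts of member genes, 31 met the rule by themselves, and 14 had values identical to those of the transcript kept.

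The entries of the RefSeq table, ordered along the genome, also place some members beside each other. In the table's order, 11 members lay in 4 runs with at most 50 entries from one member to the next. GRMZM2G353195 and GRMZM2G054916 had no entry between them, nor had GRMZM2G112238 and GRMZM2G025959. The longest run held 4 members, GRMZM2G050842, GRMZM2G112238, GRMZM2G025959 and GRMZM2G479746, within 42 entries, 15 of which were genes with both B73 means at or above 50. Within 300 entries of Nkd1 on either side were 4 members of 155 such genes (2.58%), namely GRMZM2G080156, GRMZM2G101675, GRMZM2G160175 and GRMZM2G463280. Within 300 entries of Nkd2 were mbd123 and GRMZM5G854655, 2 of 151 (1.32%), while 0.354% of the 11598 matched genes of that level are members. These window sizes were chosen after the values were seen. What the place near these loci has to do with the low nkd values, in plants crossed back to B73, was not tested.

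In 3 pairs of members the values differed by less than 1.2-fold in each of the 6 B73 libraries. GRMZM2G026174 was 1.03 to 1.08 times GRMZM2G570989, GRMZM2G161750 was 0.90 to 1.05 times GRMZM5G813474, and GRMZM2G554314 was 1.00 to 1.08 times GRMZM5G854391. Whether the members of a pair share reads cannot be told from the files, so the 77 members may stand for fewer separate transcripts. No member had the same reads as another gene in every library.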

How the data were processed

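Laser-captured aleurone and starchy endosperm of nkd and B73 kernels were sequenced as 50 base pair paired-end reads, and each of the 3 flow cells carried 1 library per group, per the labels. The deposited signal is a normalised read number per transcript, scaled by the authors separately in an aleurone and a starchy endosperm table; FastQC, TopHat and DESeq are named, unversioned, in the submitters' processing notes. The genome build, annotation, strand setting and treatment of shared reads were not given in the sources used here. For each column, 100% of values were whole multiples of the smallest step (tolerance 0.01), so whole reads were recovered. Values are not divided by transcript length, so levels are not compared between genes as abundances.

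Genotypes were compared on log2(value + 1) with limma 3.58.1, for genes with a mean of at least 5 over the 6 libraries. Folds on that scale understate the change of low genes. Cell types were compared with edgeR 4.0.16 (quasi-likelihood test, TMM factors, filterByExpr) on the recovered reads of all 12 libraries, and DESeq2 1.42.0 was an alternative. P-values are two-sided and Benjamini-Hochberg adjusted over all genes tested, with a threshold of 0.05. P-values measure the spread between the libraries of a group, all labelled as biological replicates. The fits were tested on simulated data. The replicate number is the flow cell, per the labels, so it pairs the libraries. Same-numbered libraries did not consistently deviate together from their group means, with correlations of both signs between -0.286 and 0.280. Names came from RefSeq (Zm-B73-REFERENCE-NAM-5.0), which matched 18774 of 39656 genes (47.3%), by identifier only, and no coordinates are used. It holds no descriptions or sequences, so classes of genes by description were not made and no sequence is shown.

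Members with a name were described in full, and other members by counts and ranges, save for those at the threshold, those called between cell types, and those said to have been picked after their values were seen. The members and lists were chosen with earlier results of these data known. Homonyms of listed symbols (bronze genes among zeins, a haemoglobin among embryo markers) were taken out of the lists. Alternatives were other factors, filters, pseudocounts, tests, the block and leaving out each library.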

Additional observations from a re-analysis of the deposited data

Results flagged for a closer look

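GRMZM5G854655 was flagged because its cell types were ordered in opposite ways in the 2 genotypes. In nkd, its 0.619, 0.866 and 0.209 CPM in aleurone lay below its 1.32, 1.78 and 1.37 CPM in starchy endosperm, a log2 difference of -1.41 (edgeR, adjusted p = 0.162). In B73, its 312, 221 and 308 CPM in aleurone lay above its 31.3, 84.3 and 17.1 CPM in starchy endosperm, a log2 difference of 2.66 (edgeR, adjusted p = 0.163). The difference between the genotypes was not tested.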

How the results depend on the processing

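The number of members was 77, and became 150 with a ratio of at most 1/4, 46 with at most 1/16 and 35 with B73 means of at least 200. It was 82 to 101 with any 1 library left out of the rule. Genes called in nkd against B73 numbered 3868 in aleurone, and 1945 to 3724 without 1 library each. In starchy endosperm they numbered 437, against 215 with no filter and 25 to 211 without 1 library each. With the flow cell as a block they numbered 2994 and 626, and the block changed the call of 1 of the members given above by name or identifier, GRMZM2G061609. Between cell types in B73, no gene was called by edgeR, against 1415 by DESeq2, 2 from the libraries of B73 alone, and 0 to 421 without 1 library each. Members called there were 12 by DESeq2 and 0 to 3 without 1 library each. Between cell types in nkd, 1797 genes were called, against 3914 by DESeq2, 1156 from the libraries of nkd alone and 662 to 2545 without 1 library each. Members called there were 7, against 12 by DESeq2, 1 from the libraries of nkd alone (where 20 members passed the filter) and 2 to 10 without 1 library each. Over the single members recomputed, 28 calls were lost and 19 gained, and no called difference changed sign. Some uncalled cell type differences changed sign without 1 library each: chiA in B73 ranged from -0.64 to 2.54 (and was 0.63 with the block), GRMZM2G149323 in B73 from -0.68 to 0.031, and in nkd Cat0 from -0.40 to 3.25, ICL from -2.00 to 1.61, AGA3b from -3.58 to 1.27 (-0.30 with the block) and GRMZM2G012806 from -4.06 to 0.74. The causes of these shifts were not tested. Depth limits the nkd side, where 24 members in aleurone and 35 in starchy endosperm have at most 3 reads in all. It also limits the B73 side, where the lowest library enters the rule. B73 starchy endosperm replicate 3, with the fewest reads of all libraries (9570998), was lowest of its group for 37 members, against 15 for replicate 1 and 25 for replicate 2. That library held 2 reads of ICL, 4 of mbd123 and 5 of chiA.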
